A study of Mus musculus with 2 samples.

Results

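Il10-positive Il13-zero regulatory T cells (Tregs) of adult mouse back skin were described against the skin Tregs in which neither cytokine was detected. They were chosen by their own readout: skin barcodes with at least 200 genes, at most 10% mitochondrial UMIs, at least 1 UMI over Cd3d, Cd3e and Cd3g, fewer than 3 UMIs over 5 cell cycle genes, 0 UMIs of Ccr7 and Il13, and at least 1 UMI of Il10. A UMI is a tag that marks 1 captured RNA molecule. The rule selected 1254 of 4400 cells that passed all filters but that on Il10 (28.5%, 95% Clopper-Pearson interval 27.2 to 29.9), out of 6601 skin barcodes and 15331 barcodes in all. The 3146 other cells, with 0 UMIs of Il10 and Il13, were the comparison. Skin cells with Il13 detected were a second reference, 663 without and 481 with Il10. The Il10 level itself follows from the rule and is given as a description only.

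The skin came from Foxp3-CreERT2GFP C57Bl/6 mice and the lung from Foxp3-GFP C57Bl/6 mice, which the labels call the Tachilla strain. Both reporters mark cells that express Foxp3, the transcription factor that defines Tregs. Tissue was digested with collagenase, GFP+ CD4+ CD3+ CD45+ cells were sorted, and 1 library per tissue was made with the 10x Single Cell 3' v2 chemistry. The number of animals is not given in the sources used here. With 1 library per tissue no difference has a replicate check, no test was possible, and every interval below covers counting error only.

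Interleukin 10 is a secreted cytokine that restrains dendritic cells, macrophages and effector T cells through a receptor built from IL-10RA and IL-10RB, which signals through STAT3. Foxp3-positive Tregs are among its main sources at barrier surfaces, and mice whose Tregs lack it develop inflammation at such sites while their other Treg functions are largely kept. Tregs of a tissue do not all transcribe it at one time, and in T cells its transcription depends on factors such as c-Maf, Blimp-1 and BATF.

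The skin library held 16190303 UMIs. Of its barcodes, 1 had too few genes, 133 too many mitochondrial UMIs, 67 no Cd3 UMI, 104 cell cycle RNA and 752 a Ccr7 UMI. The Il10-positive cells had a median of 2134 UMIs and the Il10-zero cells 1924, so the sets differed in depth. Il10 was therefore taken out of the matrix and each cell was thinned to 1000 UMIs, after which the medians were 612 and 610 genes per cell. Early response genes, which tissue digestion also induces, took 2.45% of UMIs in each group, and ribosomal protein genes 17.1% and 18.0%. The skin and lung libraries shared 82 barcodes.

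Il10 RNA was uneven among the cells that held it. Of the 1254 cells, 723 held 1 UMI (57.7%), 217 held 2, and 314 held 3 or more. Those 314 cells carried 59.9% of the 2883 Il10 UMIs, 33 cells held 10 or more, and the highest held 23. Over all 4400 cells the variance of the Il10 count was 4.23 times its mean. At the threshold the set is thus made largely of cells with a single Il10 molecule, next to Il10-zero cells of which some may hold undetected transcript.

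The share of Il10-positive cells depended on depth and on the cell set. At 1000 UMIs per cell it was 18.0% (16.9 to 19.2) of the Il13-zero cells. In cells with Il13 it was 25.1% (22.6 to 27.7) thinned and 42.0% raw, and in Ccr7-positive cells 13.3% thinned and 27.1% raw. Il10 was also counted in 88 skin cells with at least 10 UMIs of fibroblast markers. Most of them held Cd3 UMIs too, so they cannot separate free RNA from RNA of a T cell in the same droplet. Their raw share of 31.8% came with a median of 5664.5 UMIs, against 1981 in the Il13-zero cells, and it was 4.55% (1.25 to 11.2) once thinned. Of these cells 1 had 3 or more Il10 UMIs (1.14%), against 7.14% of the Il13-zero cells. The thinned share also falls because these cells are deep. Whether a single Il10 UMI is background in some of the cells was not tested, and levels are given below for cells with 1, 2 and 3 or more. The 67 cells with no Cd3 UMI, of mixed or unknown type and with a median of 1303 UMIs, had a share of 25.4% raw and 20.9% (11.9 to 32.6) thinned, so not every set outside the gate was below the Il13-zero cells. Among the 10 cells with no Cd3 UMI and as many fibroblast UMIs, 2 held Il10 and 0 did once thinned, which with so few cells allows a share of up to 30.9%. In lung, 57 of 3606 cells under the same rule held Il10 (1.58%, 1.20 to 2.04), or 0.959% at 1000 UMIs.

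**Figure D1:**
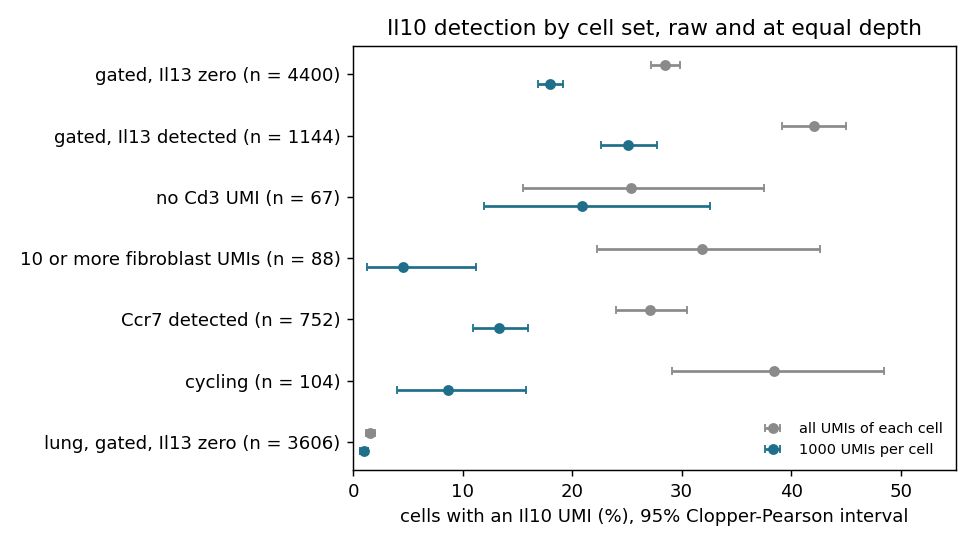
Share of cells with at least 1 Il10 UMI (x axis, percent) in 6 skin cell sets and in lung (y axis, with the number of cells), from all UMIs (grey) and at 1000 UMIs per cell (blue), with 95% Clopper-Pearson intervals. At equal depth the Il13-zero cells stand at 18.0%, the cells rich in fibroblast markers at 4.55% (31.8% from all UMIs) and lung at 0.959%.

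The label of the set was checked against markers of Tregs and of other cells. At least 1 of 6 Treg genes was detected in 97.7% of the Il10-positive and 97.9% of the Il10-zero cells at 1000 UMIs. Ikzf2, the gene of the Treg transcription factor Helios, stood at 1770.3 (1698 to 1846) against 1738 (1692 to 1785) in CPM, a gene's UMIs scaled to a common total. Foxp3 itself was thinly captured, at 23.9 CPM (16.1 to 34.2) against 21.9 (17.1 to 27.8). It stood at 27.7 CPM with 1 and 36.9 with 2 Il10 UMIs. With 3 or more it stood at 6.37 CPM (0.771 to 23.0) from 2 UMIs, an interval that overlaps that of the Il10-zero cells. Il2ra, which encodes the high-affinity IL-2 receptor chain CD25, stood at 206 against 184 CPM, Cd4 at 152 against 181 CPM and Ptprc, the gene of CD45, at 848 against 858 CPM. Markers of NK cells, melanocytes, mast cells and neutrophils were all at 0 UMIs in the Il10-positive cells, which allows up to 2.39 CPM. These lists held only 2, 4, 2 and 0 UMIs in the Il10-zero cells, so their absence tells little. The summed list of ILC2, a lymphoid cell without T cell receptor, stood at 555 against 364 CPM, but it includes Calca. Its members Arg1, Hs3st1 and Nmur1 were at 0, but held only 0, 1 and 1 UMIs in the Il10-zero cells, so they tell little. Il9r was detected, at 34.0 CPM with 0 and 54.1 with 3 or more Il10 UMIs, and Il17rb stood at 10.2 and 0 CPM. The summed fibroblast markers stood at 1014 against 1026 CPM, those of macrophages at 67.0 against 66.4 and those of keratinocytes at 19.9 against 23.8. Along the Il10 count they were not even. With 0, 1, 2 and 3 or more Il10 UMIs Dcn stood at 261, 369, 235 and 57.3 CPM. Each listed fibroblast marker was lowest at 3 or more. Lyz2, the macrophage marker with most UMIs, stood at 34.3, 77.5, 9.22 and 12.7 CPM. Whether this moves other genes along the Il10 count was not tested. Dendritic and Langerhans cell markers stood apart, at 774 against 568 CPM, with Cd207, the defining gene of Langerhans cells, at 0. Treg genes were thus detected in nearly all cells of both groups, and Cd4 was slightly lower in the Il10-positive cells (ratio 0.841, 0.710 to 0.992). Ikzf2 was also detected in 62.7% of the cells with no Cd3 UMI at 1000 UMIs, so it separates cell types only in part. The dendritic cell genes are described with the class II genes below.

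Of 5262 genes with a mean of at least 20 CPM over both groups, 44 were at least 1.5-fold higher in the Il10-positive cells (0.836% of those compared) and 31 at least 1.5-fold lower (0.589%), as ratios of CPM with 5 added to both sides. The median log2 ratio over all compared genes was 0.01, and 95% of them lay between −0.42 and 0.44. Among the 2811 genes at 50 CPM or more, 11 were higher and 6 lower. On totals without ribosomal and mitochondrial genes the split was 62 higher and 74 lower. Which genes were called also moved with the thinning: a second random draw gave 38 higher and 45 lower genes, of which 15 and 14 were among the first. Of the genes called and named below, Calca, Ly6a, H2-Ab1, Mrps36, Tpgs1, Spry1, Tnfsf8, Egr2 and Ramp3 were under 1.5-fold in that draw, on the same side. The description below therefore turns mainly on genes of 50 CPM or more and on levels along the Il10 count. Plain ratios of CPM are printed for single genes.

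**Figure D2:**
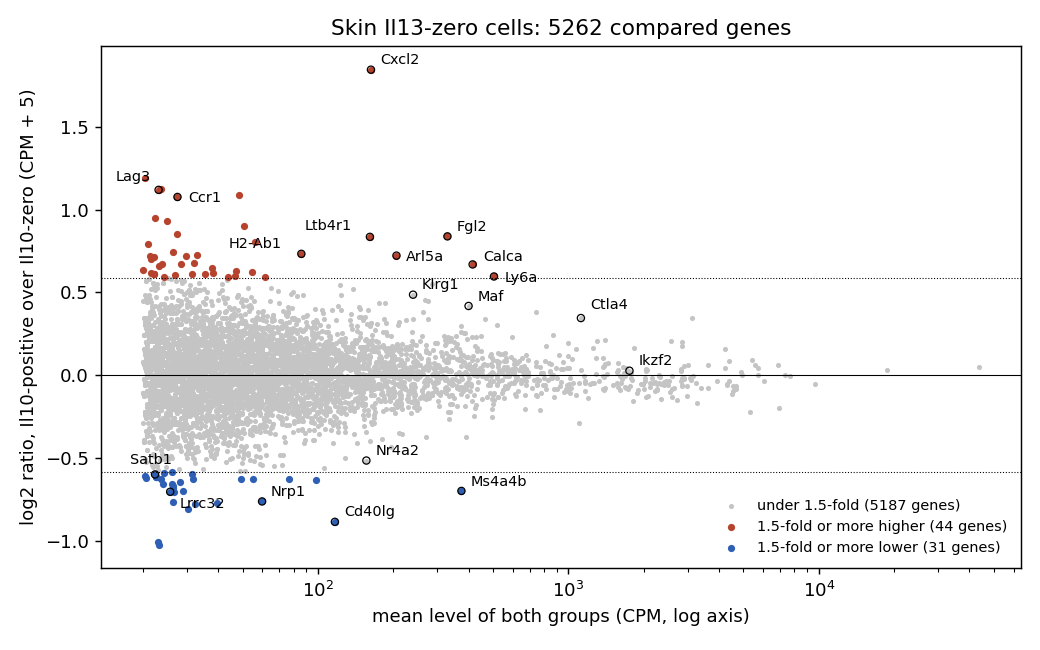
Mean level of both groups (x axis, CPM, log scale) against the log2 ratio of Il10-positive over Il10-zero cells (y axis, CPM + 5) for the 5262 compared genes, with 44 at least 1.5-fold higher in red, 31 lower in blue and dotted lines at 1.5-fold. Most called genes lie near the floor of 20 CPM, and Cxcl2, Fgl2, Ltb4r1, Calca, Ms4a4b and Cd40lg stand apart at higher levels.

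The higher end held, among others, genes of secreted and surface molecules. The 15 highest also held Mrps36 at 67.8 against 34.0 CPM, Tpgs1 at 72.6 against 39.4 and Ethe1 at 63.0 against 42.3. Fgl2 (ENSMUSG00000039899, chromosome 5, 21372642 to 21378374) encodes fibrinogen-like protein 2, which Tregs secrete to inhibit dendritic cells and effector T cells. It stood at 423 CPM (388 to 461) in the Il10-positive cells against 235 (218 to 252), a ratio of 1.81 (1.61 to 2.02). Along the Il10 count its level was 235 CPM at 0, 325 at 1, 589.9 at 2 and 535 at 3 or more UMIs. In lung it was 64.9 against 15.4 CPM, from 13 UMIs in the Il10-positive cells (ratio 4.21, 2.19 to 7.44; thinned 4.96, 0.979 to 15.7). Fgl2 was thus higher in the Il10-positive cells of skin, already at a single Il10 UMI. In lung it was higher from all UMIs, while the thinned interval held 1. The gene lies within Ccdc146 on the opposite strand, and how the counting used strand is not given in the sources used here.

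Calca (ENSMUSG00000030669, chromosome 7, 114631478 to 114636357) encodes calcitonin gene-related peptide, a neuropeptide otherwise known from sensory nerves. It stood at 510.4 CPM (472 to 551) against 319 (299.7 to 339.5), a ratio of 1.60 (1.45 to 1.77). Its level was 394 CPM at 1, 576 at 2 and 732 at 3 or more Il10 UMIs. Calca was concentrated in few cells: 83 Il10-positive cells (6.62%) held 3 or more of its UMIs at equal depth, against 3.31% of Il10-zero cells. Lung cells of both groups had 0 Calca UMIs. Calcrl and Ramp1, which encode its receptor, stood at ratios of 1.41 (0.806 to 2.40) and 1.17 (0.821 to 1.65), and Ramp3, which forms receptors of related peptides, stood at 37.5 against 60.7 CPM.

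Ltb4r1 (ENSMUSG00000046908, chromosome 14, 55765962 to 55768494), the gene of the leukotriene B4 receptor that guides leukocytes to inflamed tissue, stood at 208 CPM (184 to 235) against 114 (103 to 127), a ratio of 1.82 (1.54 to 2.14). It reached 334 CPM (274 to 405) at 3 or more Il10 UMIs. Ly6a, which encodes the surface protein Sca-1 and has close paralogs that can share reads, stood at 608 against 401 CPM and reached 789.8 CPM at 3 or more. Arl5a, the gene of a small GTPase of the Golgi, stood at 258 against 154 CPM without a further step, at 332 CPM with 2 and 252 with 3 or more Il10 UMIs. Ltb4r1 and Ly6a thus stepped upward over all 4 Il10 classes, and Arl5a did not.

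Ctla4 (ENSMUSG00000026011, chromosome 1, 60887000 to 60915832), which overlaps the pseudogene Rpl18-ps1 and encodes an inhibitory receptor that strips CD80 and CD86 from dendritic cells, was one of the marker genes named for these cells. It stood at 1257 CPM (1196 to 1320.4) against 989 (954 to 1024), a ratio of 1.27 (1.20 to 1.35) that stays under the 1.5-fold line. Cells with 1 Il10 UMI had 1039 CPM (966 to 1116), an interval that overlaps that of the Il10-zero cells. At 3 or more the level was 1729 CPM (1587 to 1881) and the ratio 1.75. Klrg1, an inhibitory receptor gene of terminally differentiated Tregs, had the same shape, with 199 CPM at 0, 207 at 1, 286 at 2 and 446 at 3 or more Il10 UMIs. For these genes the difference was carried by cells with more than 1 Il10 molecule.

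Genes at low level included an inhibitory receptor and a chemokine receptor. Lag3, which encodes a receptor that binds MHC class II, stood at 33.5 CPM (24.1 to 45.3) against 12.7 (9.08 to 17.3), a ratio of 2.63 (1.67 to 4.17) from 42 and 40 UMIs. Ccr1, which encodes a receptor for inflammatory chemokines, stood at 39.1 CPM (28.9 to 51.7) against 15.9, a ratio of 2.46 (1.62 to 3.72). At 3 or more Il10 UMIs Lag3 stood at 51.0 and Ccr1 at 79.6 CPM. In lung, Lag3 stood at 99.9 against 15.6 CPM (20 UMIs in the Il10-positive cells; ratio 6.39, thinned 20.4). These counts are small, and both genes passed the floor of 20 CPM only through the Il10-positive cells. Both lay above the Il10-zero level at 1 and at 3 or more Il10 UMIs, while Ccr1 with 13.8 CPM did not at 2.

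**Figure D3:**
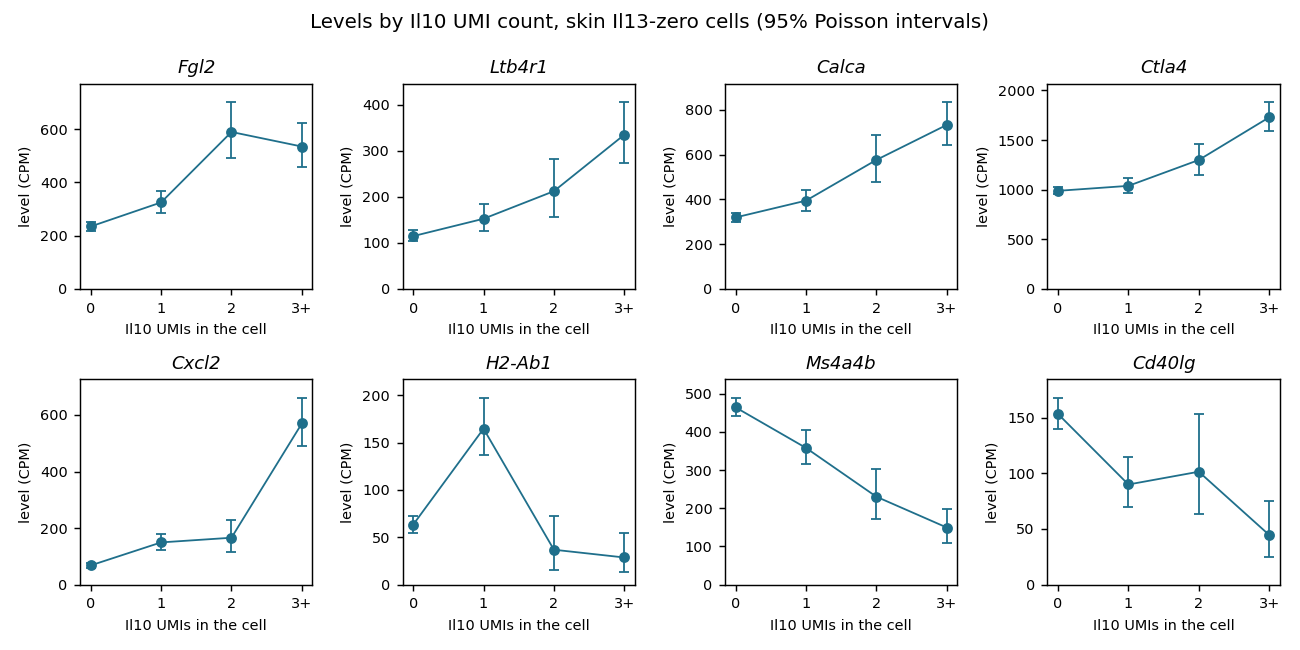
Level (y axis, CPM at 1000 UMIs per cell, 95% Poisson intervals) of 8 genes in skin Il13-zero cells with 0, 1, 2 and 3 or more Il10 UMIs (x axis; 3146, 723, 217 and 314 cells). Ltb4r1, Calca and Ctla4 step upward to 334, 732 and 1729 CPM, Ms4a4b and Cd40lg stand lowest at 3 or more, and H2-Ab1 peaks at 1 Il10 UMI.

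Cxcl2 (ENSMUSG00000058427, chromosome 5, 90903871 to 90905938), the gene of a chemokine that attracts neutrophils, had the widest ratio. It stood at 258 CPM (230.2 to 287) against 68.0 (59.2 to 77.8), a ratio of 3.79 (3.18 to 4.52), and at 570.1 CPM (489.6 to 660.0) at 3 or more Il10 UMIs. Its RNA was held by few cells, so that 1% of the Il10-positive cells carried 61.0% of it, and the variance was 16.4 times the mean. Before thinning, 18 Il10-positive and 9 Il10-zero cells held 10 or more Cxcl2 UMIs. The 18 cells had a median of 7.5 Cd3 UMIs and of 3 Il10 UMIs, 100% of them held Ikzf2, 1 held 3 or more UMIs of dendritic cell markers and 0 held a macrophage marker. Ikzf2 was held by 92.3% of all Il10-positive cells. Of the 9 Il10-zero cells 100% held Ikzf2, 22.2% 3 or more UMIs of dendritic cell markers and 22.2% a macrophage marker. Which cells made the Cxcl2 RNA was not tested. Among cells with Il13 the order of the Cxcl2 levels was the other way, with 106 CPM in Il10-positive and 148 in Il10-zero cells (ratio 0.717, 0.501 to 1.02). In lung it stood at 69.9 against 5.81 CPM, from 14 UMIs (thinned ratio 13.6, 3.35 to 41.3).

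Genes of the MHC class II molecules, which present antigen on dendritic cells, were also among the 15 highest, but not through most Il10-positive cells. H2-Ab1 stood at 108 against 63.3 CPM and H2-Eb1 at 67.0 against 41.6, with 69.9% and 84.5% of their UMIs in 1% of the cells. Along the Il10 count H2-Ab1 was at 63.3, 165, 36.9 and 28.7 CPM, so that it was lower with 2 or more Il10 UMIs than with none. Before thinning, 6 Il10-positive and 6 Il10-zero cells held 10 or more UMIs over H2-Aa, H2-Ab1 and H2-Eb1. The 6 Il10-positive cells held a median of 410 UMIs of dendritic and Langerhans cell markers and 2.5 of Cd3, and 1 of them held 3 or more Il10 UMIs. Gsn, the gene of the actin-severing protein gelsolin, had the same shape, at 231, 481, 179.7 and 131 CPM along the Il10 count with 59.3% of its UMIs in 1% of cells. This shape was not particular to class II genes. Of the fibroblast markers, Dcn was also highest at 1 Il10 UMI and lowest at 3 or more, while Lum was highest at 2. Which cells the Gsn RNA came from was not tested.

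The lower end held 2 ligands of the TNF family and several T cell surface genes. Cd40lg (ENSMUSG00000031132, chromosome X, 57212143 to 57224042) encodes CD40 ligand, with which helper T cells activate B cells and dendritic cells. It stood at 80.5 CPM (65.6 to 97.9) against 153 (139.8 to 168), so that the Il10-zero cells were 1.90-fold (1.53 to 2.38) higher, and at 44.6 CPM with 3 or more Il10 UMIs. Tnfsf8, which encodes CD30 ligand of the same family, stood at 75.8 against 120.2 CPM. Nrp1, the gene of neuropilin 1, a semaphorin receptor of thymus-derived Tregs, stood at 43.1 (32.4 to 56.2) against 76.6 CPM (67.2 to 86.9).

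Ms4a4b (ENSMUSG00000056290, chromosome 19, 11443553 to 11467055), the gene of a membrane protein of T cells, had the most UMIs of the genes called lower. It stood at 284 CPM (255 to 315) against 464 (441 to 489) and stepped down over all 4 Il10 classes, with 358 CPM at 1, 230.4 at 2 and 149.7 (110.0 to 199) at 3 or more UMIs. Cd7, a T cell surface gene, was at 72.2 CPM at 0 and 67.8 at 1, and at 9.55 (1.97 to 27.9) with 3 or more. Izumo1r, the gene of folate receptor 4, stood at 84.5 against 127 CPM, but not lower among cells with Il13 (72.8 against 61.8), and Nr4a2, a nuclear receptor gene induced by T cell receptor signals, at 128 against 185. Satb1, the gene of a chromatin organizer that is high in naive T cells, was low throughout, at 28.0 CPM at 0, 24.9 at 1 and 3.18 (1 UMI) with 3 or more Il10 UMIs.

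Cells with 3 or more Il10 UMIs differed more widely from Il10-zero cells than the set as a whole. Of 5252 genes compared, 314 were at least 1.5-fold higher (5.98%) and 292 lower (5.56%). This group holds 314 of the 1254 cells, so counting error also moves more genes past the line. Of the 15 highest genes 9 and of the 15 lowest 10 had a wider log2 ratio there, and the median of the 15 went from 0.67 to 0.93 and from −0.55 to −0.87. The 314 cells are part of the set and share its Il10-zero cells, so these values describe the set and are not independent of the first contrast.

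The same contrast among cells with Il13 used none of the cells above. With Il10 and Il13 left out of the matrix, 258 of 5245 genes were at least 1.5-fold higher (4.92%) in the 481 Il10-positive cells than in the 663 Il10-zero cells, and 300 lower (5.72%). Of the 15 highest genes of the Il13-zero cells, 11 had a log2 ratio above 0 and 1 was at least 1.5-fold higher, with a median of 0.22 against 0.00 for all genes compared. Of the 15 lowest, 10 were below 0 and 5 at least 1.5-fold lower, with a median of −0.38. Calca stood at 915 against 641 CPM (ratio 1.43, 1.25 to 1.63), Ctla4 at 1420.0 against 1071 (1.33, 1.19 to 1.47), Fgl2 at 420.0 against 311 (1.35, 1.11 to 1.65) and Ltb4r1 at 210.0 against 152 (1.38, 1.04 to 1.83). On the lower side Ms4a4b stood at 158 against 306 CPM (ratio 0.516, 0.391 to 0.675), Cd7 at 22.9 against 49.8 (0.459, 0.209 to 0.932) and Nr4a2 at 93.6 against 151 (0.620, 0.426 to 0.890). These 7 genes lay on the same side with and without Il13. The intervals of their ratios did not hold 1, but they cover counting error only. They do not widen for UMIs that gather in few cells, as those of Calca do. Of the highest genes Cxcl2, Mrps36, Tpgs1 and H2-Ab1 lay on the other side, and of the lowest Izumo1r, Immt, Sp110, Chd7 and Neurl3.

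**Figure D4:**
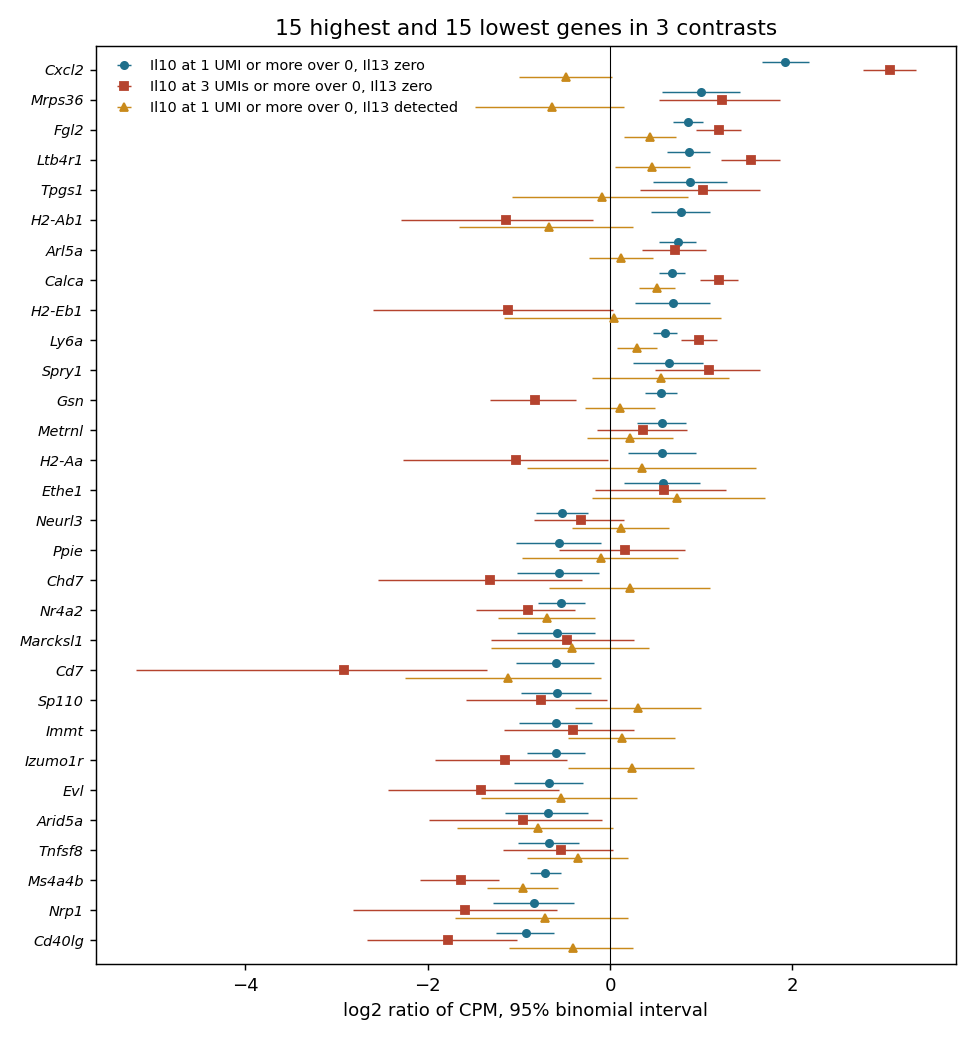
Log2 ratio of CPM (x axis, 95% binomial intervals) of the 15 highest and 15 lowest genes (y axis) in Il13-zero cells with any Il10 UMI (circles), in Il13-zero cells with 3 or more (squares) and in cells with Il13 (triangles), each over the Il10-zero cells of its kind. Fgl2, Ltb4r1, Calca, Ly6a, Ms4a4b, Cd7 and Nr4a2 lie on the same side in all 3 contrasts, while H2-Ab1 and Cxcl2 do not.

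Levels were also read over the 4 classes by Il10 and Il13 detection, which cannot assign a difference to either cytokine. Calca was at 321 CPM (302 to 341) in cells with neither and 504 (465 to 545) with Il10 alone. It was at 641 (582 to 705) with Il13 alone and 915 (831 to 1004) with both. Calca was thus higher with Il13 than with Il10 alone at this threshold. Il13-zero cells with 3 or more Il10 UMIs had 732 CPM (641 to 834), so that order depends on the Il10 threshold. Ctla4 was at 983, 1291, 1071 and 1420.0 CPM in the same order, higher with Il10 than with Il13 alone. Ms4a4b was at 453, 285, 306 and 158 CPM, and Cd40lg at 142, 74.2, 83.0 and 62.4 CPM, lower with either cytokine. Lag3 was at 10.5, 34.3 (24.8 to 46.2), 13.6 (6.21 to 25.8) and 20.8 CPM. For Lag3 the interval with Il13 alone held the level with neither and overlapped that with Il10 alone.

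Promoter sequence is shown for 3 higher genes and 1 lower gene that kept their side in every alternative examined, to show the DNA before their starts. The bases are from the 250 before the RefSeq start, build GRCm38.p6, printed 5′ to 3′ on the strand of the gene, and 4 of 4 genes were found. GENCODE begins Fgl2 31 bases and Ms4a4b 5 bases upstream of the RefSeq start, and the windows are printed up to the GENCODE start. Capitals mark matches on either strand to AP-1 (TGANTCA), the cAMP response element CRE (TGACGTCA), its half-site (TGACG, a part of the full CRE) and the half-site of Maf factors (TGCTGA).
Fgl2, chr5:21372423-21372641, plus strand: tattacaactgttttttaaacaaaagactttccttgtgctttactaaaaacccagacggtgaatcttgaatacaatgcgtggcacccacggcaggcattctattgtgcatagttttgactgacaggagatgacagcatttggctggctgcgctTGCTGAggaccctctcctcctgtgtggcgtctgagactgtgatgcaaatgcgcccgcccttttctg
Ltb4r1, chr14:55765712-55765961, plus strand: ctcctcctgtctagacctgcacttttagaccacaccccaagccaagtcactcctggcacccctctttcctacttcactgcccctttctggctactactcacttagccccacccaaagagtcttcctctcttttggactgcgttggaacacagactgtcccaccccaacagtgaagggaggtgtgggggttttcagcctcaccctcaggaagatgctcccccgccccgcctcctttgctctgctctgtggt
Calca, chr7:114636358-114636607, minus strand: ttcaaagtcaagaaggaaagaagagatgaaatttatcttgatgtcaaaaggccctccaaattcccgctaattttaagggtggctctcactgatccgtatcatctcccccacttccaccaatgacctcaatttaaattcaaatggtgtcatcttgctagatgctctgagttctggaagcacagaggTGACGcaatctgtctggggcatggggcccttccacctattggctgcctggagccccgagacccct
Ms4a4b, chr19:11443308-11443552, plus strand: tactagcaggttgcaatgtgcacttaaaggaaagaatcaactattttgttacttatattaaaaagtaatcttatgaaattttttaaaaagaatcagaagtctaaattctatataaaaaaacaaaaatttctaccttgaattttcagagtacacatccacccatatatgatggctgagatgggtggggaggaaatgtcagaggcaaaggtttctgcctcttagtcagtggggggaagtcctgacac
The Fgl2 window held a Maf half-site from 97 to 92 bases before the RefSeq start. An AP-1 match from 16 to 10 bases before that start lies inside the gene as GENCODE gives it and is not printed. The Calca window held a CRE half-site from 65 to 61 bases before the start, and the windows of Ltb4r1 and Ms4a4b held no match. Of 32851 such windows in the RefSeq table, 6.75% hold the AP-1 letters, 1.55% the CRE, 17.8% its half-site and 16.1% the Maf half-site. A match describes the letters and is not a measured binding site.

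Lists of genes were read by their counts and medians. Over all genes compared the median was 0.01, with 0.836% called higher and 0.589% called lower. Called list members such as Lag3, Ccr1, Lrrc32, Satb1 and Egr2 passed the floor of 20 CPM only through the group where they were higher. Tissue and effector Treg genes had 14 of 18 members above 0, with a median log2 ratio of 0.15 and none past 1.5-fold. Besides Klrg1, Gcnt1, the gene of an enzyme that builds core 2 glycans on selectin ligands, stood at 163 against 113 CPM. Itgae, which encodes the CD103 chain that binds E-cadherin, stood at 386 against 327 CPM and Cxcr6, a receptor gene of tissue-resident T cells, at 838 against 643. Genes of central and recirculating cells had 8 of 10 members below 0 with a median of −0.07, and 1, Satb1, past 1.5-fold.

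Suppressive molecules split, with 2 of 16 at least 1.5-fold higher (Lag3 and Fgl2), 2 lower (Nrp1 and Lrrc32) and a median of 0.11. Over all genes compared the shares were 0.836% and 0.589%. Lrrc32, the gene of GARP, which holds latent TGF-beta on the Treg surface, stood at 18.3 against 33.1 CPM, while Itgb8, whose integrin releases TGF-beta, stood at 94.1 against 64.8 CPM. Gzmb, which encodes granzyme B, stood at 215 against 157 CPM and Ebi3, which encodes a subunit of interleukin 35, at 64.6 against 51.8. Tgfb1 stood at 396 against 409 CPM, and Tigit, an inhibitory receptor gene, at 59.8 against 64.5. The genes of this list therefore did not move in one direction.

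Of 23 compared regulators of Il10 transcription, none was at least 1.5-fold higher and 1, Egr2, was lower, with a median of −0.04. Maf, the gene of c-Maf, had the highest ratio of the list at 458 CPM (421 to 497) against 341 (321 to 362), or 1.34 (1.21 to 1.49), and stood at 535 CPM at 3 or more Il10 UMIs. Prdm1, the gene of Blimp-1, stood at 38.3 against 29.6 CPM, Batf at 143 against 144 and Gata3, the master regulator of type 2 immunity, at 669.9 against 674. Bhlhe40, which encodes a repressor of Il10 in T cells, stood at 139 against 184 CPM (ratio 0.753, 0.632 to 0.893) and at 92.4 with 3 or more Il10 UMIs. Of 8 compared genes of the IL-10 receptor and its signalling, none passed 1.5-fold in either direction, and Il10ra stood at 82.9 against 68.0 CPM.

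The neighbours of Il10 on chromosome 1 did not share its pattern. Il10 lies at 131019845 to 131024974. The cytokine genes of the same cluster, Il19, Il20 and Il24, had 0 UMIs in both groups at 1000 UMIs per cell, Fcmr and Pigr had 0 in the Il10-positive cells and 2 and 1 in the Il10-zero cells, and Dyrk3 had 7 and 20. Mapkapk2, which encodes a kinase that stabilizes cytokine mRNA, stood at 38.3 against 35.3 CPM, Eif2d at 31.9 against 34.0 and Rassf5 at 115 against 125, all with ratio intervals that hold 1.

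Cytokine, chemokine receptor and costimulation lists were read against the 0.836% of all genes called higher and 0.589% called lower. Among 10 compared cytokines and growth factors 2 were lower, Cd40lg and Tnfsf8, and 7 of 10 lay below 0. Tnfsf8 was under 1.5-fold in the second draw. The lists were chosen with earlier results of these data known, so these counts are a description only. Areg, the gene of the tissue repair factor amphiregulin, stood at 1506 against 1302 CPM and at 1831 with 3 or more Il10 UMIs. Among chemokine and migration receptors, Ccr1 was among those at least 1.5-fold higher and none was lower. Of the receptors of skin and barrier homing, Ccr4 stood at 43.1 against 62.3 and Ccr6 at 75.8 against 101 CPM, while Ccr8 stood at 106 against 88.7 and Ccr10 at 148 against 139.9. None of 14 costimulation and TNF receptor genes, 8 type 2 genes, 8 type 1 genes or 7 type 17 genes passed 1.5-fold in either direction. Il1rl1, the gene of the interleukin 33 receptor, stood at 166 against 154 CPM.

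Signalling, stress and metabolic lists held few called genes. TCR-induced genes had 1 of 18 higher, Spry1 (ratio 1.56, 1.19 to 2.03; log2 0.59, and 0.21 in the second draw), a feedback inhibitor of receptor signalling, and 1 lower, Egr2. None of 19 early response genes, 16 cAMP and CREB response genes, 14 NF-kappaB genes, 13 IL-2 receptor signalling genes, 16 glycolysis genes, 14 oxidative phosphorylation genes, 9 interferon-stimulated genes or 5 IL-1 family receptors was called. The IL-1 family receptors had the lowest median of the 24 lists, −0.15, with 4 of 5 below 0. Among them Il18r1, the gene of an interleukin 18 receptor chain, stood at 139.9 CPM (127 to 154) at 0 and 73.2 (46.4 to 109.9) at 3 or more Il10 UMIs. Genes of folding and secretion in the endoplasmic reticulum, which a secreting cell uses, had 12 of 16 members above 0 with a median of 0.08 and none called. In the neuropeptide list, 1 of 6 compared was higher, Calca, and 2 were lower, Nrp1 and Ramp3. Of these, Calca and Ramp3 were under 1.5-fold in the second draw. Penk, the gene of the opioid precursor proenkephalin, stood at 153 against 118 CPM. Of the 12 core Treg genes none was called, with 6 above and 6 below 0.

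**Figure D5:**
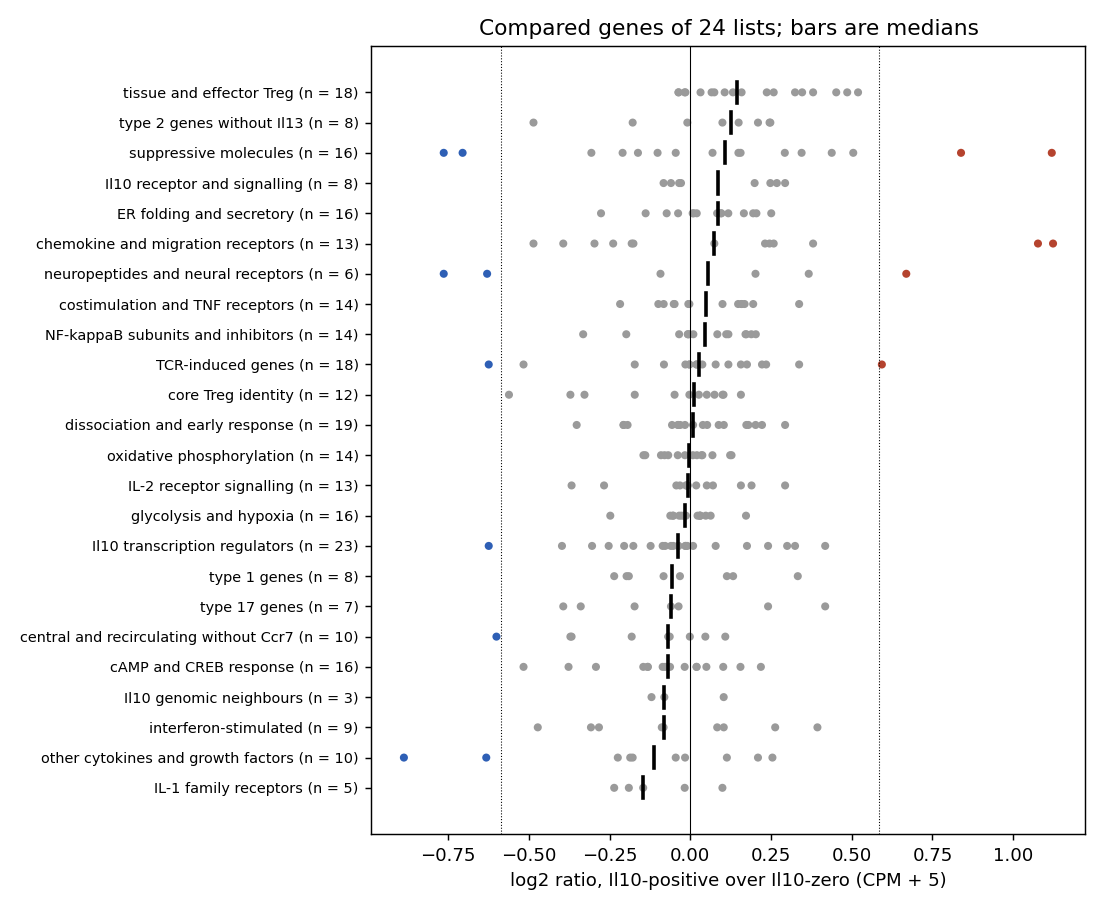
Log2 ratio of Il10-positive over Il10-zero cells (x axis, CPM + 5) of each compared gene in 24 lists (y axis, with the number of genes compared), with bars at the medians, dotted lines at 1.5-fold and called genes in red (higher) and blue (lower). List medians lie between −0.15 and 0.15, and the called genes are few in each list.

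Detection was then read per cell. Over the 4400 Il13-zero cells at 1000 UMIs, Spearman correlations of single genes with the Il10 count ran from −0.13 to 0.13, as a description, and all points share 1 library. The most alike was Fgl2 (0.13), followed by Ctla4 (0.11), Ltb4r1, Malat1, Ly6a, S100a6, Cxcr6, H2-D1, Dusp1 and Srgn, and the lowest were Tmsb10 and Ms4a4b. Il10 was detected in 27.0% (24.2 to 30.0) of cells with Fgl2 and 15.6% of cells without, and in 28.9% (24.9 to 33.1) with Ltb4r1 and 16.6% without. It was detected in 22.3% (19.5 to 25.3) of cells with Calca and in 608 of 3575 cells without, and in 10.9% (8.11 to 14.3) with Cd40lg and 18.7% without. Gata3-positive and Gata3-negative cells had close shares, 18.6% (16.9 to 20.5) and 17.5%. The correlations are weak, so no single gene marks the Il10-positive cells at this depth.

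Among the 1254 cells themselves, pairs of the higher genes were compared. Fgl2 was detected in 34.2% (28.6 to 40.0) of the 281 cells with Calca and 27.9% (25.1 to 30.8) of the 973 without. Ltb4r1 was found in 16.7% (12.6 to 21.6) and 15.9% (13.7 to 18.4) of the same cells, and Cxcl2 in 7.12% (4.40 to 10.8) and 7.61% (6.02 to 9.45). Klrg1 was found in 22.1% (17.9 to 26.7) of the 367 cells with Fgl2 and 19.8% (17.3 to 22.6) of the others. Ly6a was found in 41.1% (36.1 to 46.4) of the cells with Fgl2 and 33.4% (30.3 to 36.6) of the 887 without. The widest gaps were thus those of Ly6a with Fgl2 and of Fgl2 with Calca, and cells holding more than 2 of these genes were not counted.

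Lung gave a small second set. Its 57 Il10-positive cells held 200165 UMIs, and 26 of them had 1 Il10 UMI. Medians were 2956 UMIs in these and 2199 in the 3549 Il10-zero cells, so the values, which use all UMIs, also carry that difference in depth. Ctla4 stood at 585 against 261 CPM (ratio 2.24, 1.84 to 2.69, or 2.86 at 1000 UMIs per cell), Klrg1 at 219.8 against 44.0 (4.99, thinned 8.20), Maf at 355 against 101 (3.52, thinned 3.72) and Arl5a at 125 against 26.0 (4.80, thinned 6.80). Ms4a4b stood at 919 against 1274 CPM (ratio 0.721, 0.620 to 0.834, thinned 0.712) and Satb1 at 125 against 314 (0.398, 0.257 to 0.589, thinned 0.342). These 6 genes lay on the same side as in skin. Others did not: Cd40lg stood at 45.0 against 13.7 CPM from 9 UMIs (ratio 3.27, 1.46 to 6.41, thinned 5.47) and Bhlhe40 at 135 against 41.0 CPM (3.29, 2.14 to 4.86, thinned 4.14), both lower with Il10 in skin. The lung genes printed were picked from those named in skin, and no share over all lung genes is set beside them. How common such ratios are in 57 cells is thus not shown, and 1 thinned UMI there equals 17.5 CPM. Strain, tissue and annotation differ between the libraries and cannot be told apart.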

How the data were processed

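Single-cell RNA was measured in 1 skin and 1 lung library. The authors deposited matrices of raw UMI counts per gene and barcode; the submitters' processing notes name Cell Ranger and mm10 without a version, and the lung file header names software 3.0.2. A second, shallower lung matrix was not used. Il10 was removed, each cell was thinned at random to 1000 UMIs (seed 1), and UMIs were summed per group and scaled to CPM. Genes with a mean of at least 20 CPM were compared as log2 of (CPM + 5), which understates low genes, and called at 1.5-fold. Named genes were the 15 highest and 15 lowest at 50 CPM or more without receptor segments, mitochondrial, ribosomal, haemoglobin, Gm and Rik genes, plus Calca, Ctla4, sort-gate genes, Il10 neighbours and up to 3 genes per list. Other list members, and the genes of the co-detection values, were chosen after their values were seen. Members and the 24 lists were chosen with earlier results of these data known. Intervals (95%) are exact Poisson for levels, binomial for ratios and Clopper-Pearson for shares; a count of 0 was read against 3 UMIs. For lung the plan named thinned sums; the text departs from it and leads with all UMIs, since 57 thinned cells hold few, with thinned ratios beside them. No doublet caller was run, and an alternative leaves out the 5% of cells with most UMIs. Positions are from GENCODE M21 (GRCm38), matched by identifier for 5260 of 5262 genes. Tools were Python 3.11.15, numpy 2.4.6 and scipy 1.17.1, and the scripts were tested on simulated counts. No paired analysis was possible, since no replicates exist. The result of 1 gene is not reported here.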

Additional observations from a re-analysis of the deposited data

How the results depend on the processing

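The 44 higher and 31 lower genes moved with most settings. They were 68 and 48 with 1 CPM added, 15 and 5 with 20 CPM added, 11 and 6 with a floor of 50 CPM, and 110 and 103 with a floor of 10 CPM. Without thinning they were 27 and 15, with Il10-zero cells weighted by depth 21 and 53, and 29 genes were higher at 1500 UMIs per cell. Totals without ribosomal and mitochondrial genes gave 74 lower genes, and leaving out the 5% deepest cells 48. With Il10 at 2 UMIs or more they were 160 and 194, without cells with 3 or more UMIs of other cell types 69 and 65, and 159 and 161 where early response RNA was low. Chosen after seeing the data were Il10 at 3 UMIs or more (314 and 292), cells with 0 UMIs of other cell types (331 and 357) and Il13-positive cells (258 and 300), all with fewer cells and more counting error. The Il10 share of 28.5% was 18.0% thinned and 31.3% with Il13 not used as a filter. Fgl2, Ltb4r1, Calca, Ly6a, Arl5a, Spry1, Metrnl, Ethe1, Cd40lg, Nrp1, Ms4a4b, Tnfsf8, Arid5a, Evl, Cd7, Marcksl1 and Nr4a2 kept their side in 20 of 20 alternatives. They were chosen as ends of the main contrast, and all alternatives but the Il13-positive cells re-use its cells. A kept side is therefore not an independent check. Log2 ratios reversed in Il13-positive cells for Cxcl2 (−0.46), Mrps36 (−0.58), Tpgs1 (−0.082) and H2-Ab1 (−0.60) at the high end and for Izumo1r (0.22), Immt (0.12), Sp110 (0.29), Chd7 (0.20) and Neurl3 (0.11) at the low end, and Ppie reached 0.15 at 3 or more Il10 UMIs. H2-Aa and Gsn were −0.95 and −0.60 at 2 or more Il10 UMIs. The log2 ratio of H2-Ab1 was −0.043 with depth weighting, −0.88 at 2 and −1.02 at 3 or more Il10 UMIs, and the log2 ratio of H2-Eb1 −0.97, −0.95 and, without cells holding Cxcl2, −0.00196. The cause was not tested. No paired analysis was possible because there is 1 library per tissue.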
